A study of Mus musculus with 16 samples.

Results

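The comparison described here set thymocytes carrying an Nfkbid transgene against thymocytes of NOD-AI4 controls. Its members were chosen by library title alone and comprise 11 of the 16 RNA libraries of the study, 5 transgenic and 6 control, over every gene counted. All mice were NOD-AI4, an autoimmune diabetes strain that also carries the T cell receptor (TCR) of the autoreactive CD8 clone AI4. Controls had no further change, transgenic mice came from the line labelled 60A, and a further 5 libraries were labelled as Nfkbid knockout on the same background. All mice were 6 to 7 weeks old, and each library came from the CD4+CD8+ double-positive thymocytes of 1 mouse, sorted live. The promoter and the allele of the transgene were not given in the sources used here. By its title, the study asked how raising or removing Nfkbid affects the thymic deletion of AI4 cells.

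Double-positive thymocytes test their new TCR on self peptides held by MHC molecules, and the strength of that signal decides between survival, lineage choice and death. NF-kB transcription factors are dimers held inactive in the cytoplasm by IkB proteins until a kinase complex marks those inhibitors for destruction. Nfkbid encodes IkBNS, an atypical IkB protein that acts in the nucleus, where it binds chiefly p50 dimers and can restrain or assist the transcription of particular NF-kB target genes. IkBNS is known for its roles in regulatory T cell development and in B cell and plasma cell responses.

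The libraries held 17955743 to 26586220 counts in controls, 18546570 to 25836799 in transgenic mice and 21662210 to 35637813 in the knockout-labelled group. Controls were 3 males and 3 females, the transgenic group 3 males and 2 females, and the knockout-labelled group 4 males and 1 female. The fit of females alone therefore compared transgenic with control only. The 3 male controls were deeper than the 3 female controls. All control mice carried identifiers of one series and all transgenic and knockout-labelled mice those of another, so the genotype and the identifier series cannot be told apart in transgenic against control. Transgenic against knockout-labelled mice lies within 1 identifier series, and its values are given for many of the genes and lists below, although both comparisons share the transgenic libraries. The knockout-labelled libraries did not hold less Nfkbid than controls (below), so they are named by their label only. Control replicate 2 and transgenic replicates 3 and 5, all male, stood apart with high interferon-response transcripts. Each library has a mouse identifier of its own, so the p-values measure the spread between mice of a group.

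Levels below are read counts scaled for library size (CPM) with TMM factors between libraries. A gene was called changed where edgeR's quasi-likelihood test gave a Benjamini-Hochberg adjusted p under 0.05 over the 14933 genes tested. In transgenic against control libraries 5765 genes were called (38.6%), 3438 higher (23%) and 2327 lower (15.6%). Of these calls 59.6% were higher, against 46.8% in males alone and 41.4% once the GC content and length of transcripts were corrected for. Most changes were small, and the median called gene differed by log2 0.37 in either direction. Only 406 genes (2.72%) were both called and more than 2-fold higher, and 116 (0.777%) more than 2-fold lower. The transgenic and control libraries did not overlap in 3226 of the genes tested (21.6%), so a lack of overlap is common here. Counts of called list members below are to be read beside the shares over all genes. Against the knockout-labelled libraries the same fit called 174 genes (1.17%), 160 of them higher (1.07%) and 14 lower (0.0938%), with 106 (0.71%) more than 2-fold higher and 1 (0.0067%) more than 2-fold lower. The median log2 difference over all genes was 0.03 against controls and 0.00036 against the knockout-labelled group.

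Nfkbid itself separated the groups completely. The gene lies on chromosome 7 (GRCm38 chr7:30421732-30428746, plus strand). Control libraries held 28.9, 31.9 and 36.9 CPM of Nfkbid (lowest, median and highest), and transgenic replicates 1 to 5 held 309.6, 239.0, 114.7, 194.5 and 182.8 CPM. No transgenic library came near the highest control, and the transgenic libraries varied widely among themselves, with replicate 1 highest and replicate 3 lowest. The log2 difference was 2.67 (SE 0.15, adjusted p = 9.794e-08 by edgeR), and an exact two-sided permutation test over the 462 ways of splitting 11 libraries gave p = 0.00216. Knockout-labelled libraries held 28.2 to 37.8 CPM, inside or near the range of the controls.

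Hcst, which encodes the DAP10 signalling adaptor of NK cells and cytotoxic T cells, lies next to Nfkbid on the opposite strand (chr7:30417712-30419854). Its control levels were 3.92, 5.55 and 6.24 CPM (lowest, median, highest), and transgenic replicates 1 to 5 held 28, 20.7, 12.6, 17.4 and 17.6 CPM. Replicate 1 was highest and replicate 3 lowest for both neighbours. The annotated spans of this pair do not overlap. The library kit was stranded, but the sources used here do not say whether the counting used strand. The cause of the rise in Hcst was not tested. Among 25 tested genes of this region, Nfkbid itself included, 10 were called higher and 1 lower against controls, beside 23% and 15.6% over all genes. Nfkbid is 1 of those called higher, and against the knockout-labelled group only Nfkbid and Hcst were called. Against controls 3 were lower without control replicate 6, 7 were higher and 4 lower after the GC and length correction, and 3 of 26 were higher and 2 lower in females alone. Tyrobp, which encodes the DAP12 adaptor of myeloid and NK cells and lies beyond Hcst, was higher than in controls by 2.48 (SE 0.37, adjusted p = 0.000125 by edgeR) and was not called against the knockout-labelled group (1.26, adjusted p = 0.1116).

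Among the other IkB proteins, Bcl3 gave the largest difference. BCL-3 is, like IkBNS, a nuclear IkB protein that binds p50 and p52 dimers. Controls held 1.07, 1.74 and 2.26 CPM of Bcl3 (lowest, median, highest), and transgenic replicates 1 to 5 held 12, 9.76, 2.87, 8.72 and 5.1 CPM. All transgenic libraries lay above all controls, and replicates 1 and 3 were again the highest and the lowest. The log2 difference was 2.09 (SE 0.35, adjusted p = 0.0004016 by edgeR) against controls and 3.29 (SE 0.42, adjusted p = 0.0004828) against the knockout-labelled libraries, which held 0.298 to 1.42 CPM. Nfkbib, the cytoplasmic inhibitor IkB-beta, was higher by 0.34 (SE 0.06, adjusted p = 0.0003381) and Nfkbia, the inhibitor IkB-alpha that NF-kB itself induces, was lower by 0.30 (log2 -0.30, SE 0.06, adjusted p = 0.0007284). Neither was called against the knockout-labelled group, where the log2 differences were 0.11 and -0.10.

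Of the 5 NF-kB subunit genes, 1 was called lower and none higher, beside 15.6% and 23% over all genes. Rel, which encodes c-Rel, the subunit most tied to lymphocyte activation, held 58.7, 59.9 and 64.4 CPM in controls (lowest, median, highest) and 50.3, 56.4, 51.9, 46.2 and 48.4 CPM in transgenic replicates 1 to 5, which did not overlap. Its log2 difference was -0.25 (SE 0.07, adjusted p = 0.009956 by edgeR). That call was lost after the GC and length correction, and against the knockout-labelled group the difference was -0.02 (SE 0.07, adjusted p = 0.9814). Rela, the p65 subunit, differed by 0.08 (SE 0.05, adjusted p = 0.2672), and Nfkb1, the precursor of p50, by 0.01 (SE 0.09, adjusted p = 0.9363). Neither difference passed the test.

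Among 21 tested signal proteins upstream of NF-kB, 2 were called higher and 4 lower, beside 23% and 15.6% over all genes. Chuk and Ikbkb, the IKK-alpha and IKK-beta kinases that mark IkB proteins for destruction, were lower by log2 -0.26 (SE 0.06) and -0.24 (SE 0.06). The list had 7 genes lower without transgenic replicate 2 and 9 lower after the GC and length correction. It had 1 gene higher after that correction and on leaving out any 1 library other than control replicate 4 or transgenic replicate 3. Tnfrsf1b, the second TNF receptor, held 13.1, 14.8 and 16.6 CPM in controls (lowest, median, highest) and 26.1, 23.9, 23.1, 22.8 and 23.2 CPM in transgenic replicates 1 to 5. Its rise of 0.69 (SE 0.06, adjusted p = 4.142e-06 by edgeR) was the one of this list also called against the knockout-labelled group, at 0.38 (SE 0.07, adjusted p = 0.006183). Of 8 tested inhibitors of NF-kB signalling, 1 was called higher and 2 lower against controls, near those shares over all genes, and none against the knockout-labelled group. Tnfaip3, the deubiquitinase A20 and itself an NF-kB target, fell by 0.47 (log2 -0.47, SE 0.07, adjusted p = 0.0001839) from a control mean of 161 ± 21.6 CPM (SD, n = 6) to 115 ± 4.72 CPM (SD, n = 5). Rc3h1, the mRNA-decay factor Roquin-1, fell by 0.25 (log2 -0.25, SE 0.06).

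**Figure D1:**
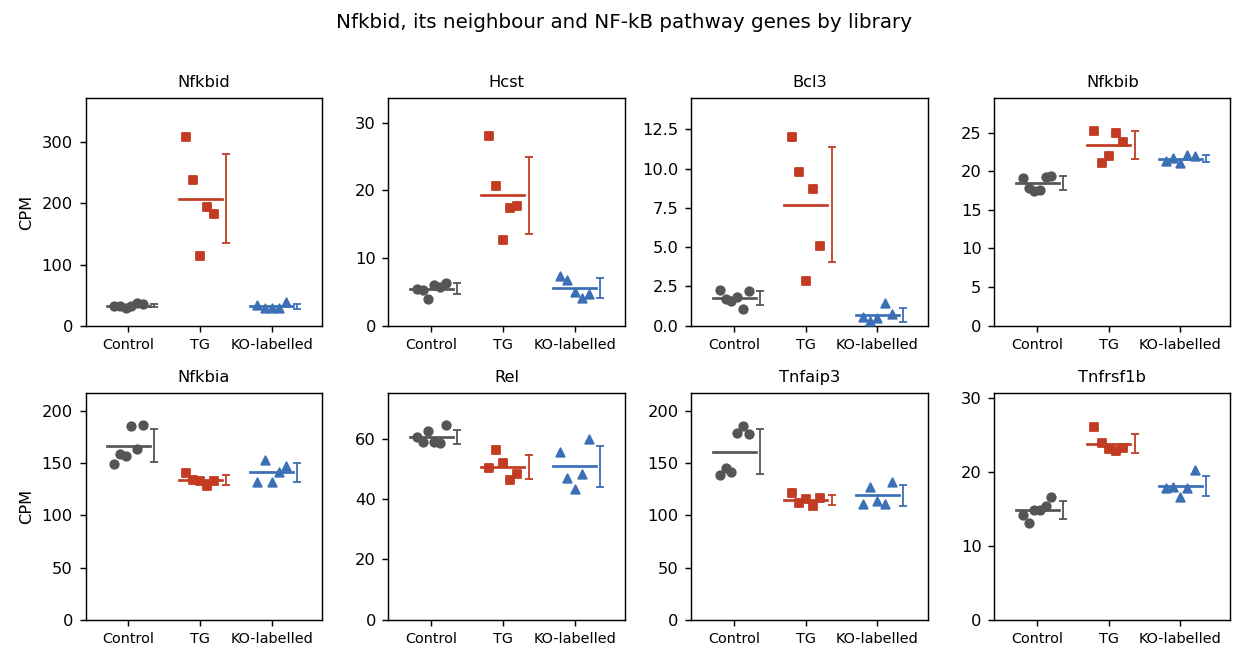
Levels in CPM of Nfkbid, its neighbour Hcst and 6 genes of the NF-kB pathway in each library, by group; points are libraries, lines are group means and bars are SDs, and each panel has its own linear axis from 0. Nfkbid, Hcst, Bcl3 and Tnfrsf1b are higher in all 5 transgenic libraries than in all 6 controls. Nfkbia, Rel and Tnfaip3 are lower, by factors far smaller than those of Nfkbid, Hcst and Bcl3.

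Genes that TCR signalling induces during selection did not move as 1 group. Of 30 tested, 5 were called higher and 3 lower against controls, beside 38.6% called over all genes. The number called higher was 3 without control replicate 4, 5 or 6 or transgenic replicate 1, 2, 4 or 5, and the number lower was 5 without control replicate 2 or transgenic replicate 5. Nr4a1, the standard reporter of TCR signal strength, held 68.7 CPM at the control median and 56.9 to 77.5 CPM in transgenic libraries (log2 -0.19, SE 0.12, adjusted p = 0.2458 by edgeR). Egr2, Cd69 and Cd5, further markers of a received signal, differed by -0.18 (SE 0.15), -0.01 (SE 0.11) and 0.13 (SE 0.07), and none passed the test. Irf4, a transcription factor whose level follows antigen receptor signal and NF-kB activity, held 2.62, 3.44 and 4.58 CPM in controls (lowest, median, highest) and 13.8, 12.2, 6.95, 10.1 and 7.38 CPM in transgenic replicates 1 to 5. Its groups did not overlap, as for 21.6% of all genes tested, and replicate 1 was again highest and replicate 3 lowest. The rise was 1.48 (SE 0.20, adjusted p = 6.298e-05) against controls and 1.85 (SE 0.22, adjusted p = 0.0001467) against the knockout-labelled group. Pdcd1, which encodes the inhibitory receptor PD-1, was higher by 0.82 (SE 0.16, adjusted p = 0.0008371) and Ikzf2, which encodes Helios, was lower by 0.42 (log2 -0.42, SE 0.09, adjusted p = 0.00135). Both were uncalled against the knockout-labelled group, at 0.18 and -0.04.

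Genes of the mitochondrial death pathway changed by small amounts and in both directions. Bcl2l11, which encodes BIM, the chief initiator of death in thymocytes that bind self strongly, held 157, 205 and 224 CPM in controls (lowest, median, highest) and 164, 154, 148, 153 and 145 CPM in transgenic replicates 1 to 5. The groups overlapped through control replicate 6, and the log2 difference was -0.40 (SE 0.08, adjusted p = 0.001033 by edgeR). Bid, a BH3-only protein that links death receptors to mitochondria, was higher by 0.47 (SE 0.10, adjusted p = 0.001238). Of 6 tested pro-survival BCL2 genes 2 were called lower and none higher, beside 15.6% and 23% over all genes. Mcl1 fell by 0.21 (log2 -0.21, SE 0.04, adjusted p = 0.001676 by edgeR) and Bcl2l1, which encodes BCL-XL, by 0.28 (log2 -0.28, SE 0.10, adjusted p = 0.04291). Bak1 and Bax, which form the pore in the outer mitochondrial membrane, were higher by 0.25 (SE 0.04, adjusted p = 0.0004869) and 0.19 (SE 0.07, adjusted p = 0.03741).

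The Bcl2l1 and Bax calls lay close to the threshold. Bcl2l1 was no longer called without control replicate 3, 4 or 5 or transgenic replicate 1, 3 or 4, with log2 differences from -0.297 to -0.224 and adjusted p from 0.0617 to 0.0899. Bax was lost without any 1 control or without transgenic replicate 1, 3, 4 or 5, with log2 differences from 0.121 to 0.188 and adjusted p from 0.0558 to 0.166. In females alone, and in a test against a 1.2-fold change, every BCL2 family gene named here lost its call against controls. The log2 differences in females alone were -0.346 for Bcl2l11, 0.475 for Bid, -0.277 for Mcl1 and 0.199 for Bak1 (adjusted p = 0.171, 0.0662, 0.0706 and 0.187 by edgeR). None of these genes was called against the knockout-labelled group.

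Of 17 tested caspases and death receptor genes, 7 were called higher and 4 lower against controls, beside 23% and 15.6% over all genes. Without the libraries with high interferon-response transcripts 4 were higher, and without transgenic replicate 1 2 were lower. Casp1 and Casp4, the inflammatory caspases of myeloid and interferon-exposed cells, were the 2 of the list called against both groups, at very low levels. Both passed the filter on low counts only through the transgenic libraries. Casp4 held 0 to 0.16 CPM in controls and 0.878, 0.625, 0.651, 0.425 and 0.572 CPM in transgenic replicates 1 to 5, without overlap (log2 2.74, SE 0.46, adjusted p = 0.0003045 by edgeR). Casp1 held 0 to 0.185 CPM in controls and 0.478 to 1.48 CPM in transgenic libraries (log2 2.93, SE 0.57, adjusted p = 0.0008464). Fadd, the adaptor of death receptors, was higher by 0.47 (SE 0.07, adjusted p = 0.0001687) and was not called against the knockout-labelled group.

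The classical class I heavy chains and B2m, 3 of 3 genes tested, were called higher in both comparisons, and genes of peptide loading and nonclassical chains were called in smaller numbers against the knockout-labelled group than against controls. Class I heavy chains pair with beta-2-microglobulin to show peptides, made by proteasomes and carried by the TAP transporter, to CD8 T cells. Promoters of class I genes are known to be targets of NF-kB and of interferon regulatory factors. The windows below, bases 200 to 101 before the annotated start in the RefSeq table of GRCm38.p6, show where letters of a searched motif lie in 3 of them. Capitals mark the letters of a searched motif. In H2-K1 and H2-D1 these are class I enhancer letters. In B2m they are the interferon-response letters, followed by the searched NF-kB letters on the other strand. Of these promoters, B2m alone matched both the interferon-response and the NF-kB letters searched. The exact interferon-response letters matched neither H2-K1 nor H2-D1. Both of those promoters hold tttcacttct, close to these letters on the other strand, which an exact search does not count. The windows lie at chr17:34000448-34000547 (minus strand), chr17:35262894-35262993 (plus strand) and chr2:122147487-122147586 (plus strand), and the NOD alleles may differ from this reference.
H2-K1: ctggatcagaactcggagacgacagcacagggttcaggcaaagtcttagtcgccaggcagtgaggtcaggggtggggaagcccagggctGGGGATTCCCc
H2-D1: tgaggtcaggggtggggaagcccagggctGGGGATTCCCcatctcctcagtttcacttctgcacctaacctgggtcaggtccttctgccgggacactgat
B2m: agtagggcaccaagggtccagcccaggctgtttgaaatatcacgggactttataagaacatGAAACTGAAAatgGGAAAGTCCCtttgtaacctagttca

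Both strands of 300-base promoters (250 bases before to 50 after the start) were searched in 32851 promoters of the RefSeq table, leaving out chromosome 18. The NF-kB letters searched, 1 form of that site with a free base at its centre, were found in 135 of them (0.41%). They were found in 1 of the 14 class I and immunoproteasome genes that had a promoter in the table, which was B2m. The interferon-response letters, a repeat with free bases between its arms, were found in 1131 (3.44%) and in 3 of the 14, B2m, Erap1 and Psme1. The class I enhancer letters, added after the first search and written in capitals in the H2-K1 window, were found in 35 (0.11%) and in 2 of the 14, H2-D1 and H2-K1. A match describes these letters only, and a promoter without a match may hold another form of the same site.

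B2m, whose promoter holds both planned motifs, held 208, 238 and 367 CPM in controls (lowest, median, highest). Transgenic replicates 1 to 5 held 568, 544, 881, 450.3 and 680.5 CPM of B2m, all above the controls. The log2 difference was 1.27 (SE 0.17, adjusted p = 0.0001032 by edgeR) against controls and 1.37 (SE 0.18, adjusted p = 0.0008965) against the knockout-labelled group. H2-K1, a classical heavy chain, held 33.6, 40.1 and 82.2 CPM in controls (lowest, median, highest) and 151, 137, 245, 133 and 217 CPM in transgenic replicates 1 to 5. H2-D1, the other classical heavy chain tested here, held 100.1, 113 and 212 CPM in controls and 352, 305, 532, 311 and 475 CPM in transgenic libraries. For all 3 genes the groups did not overlap, the highest control was replicate 2 and the highest transgenic libraries were replicates 3 and 5, the libraries with high interferon-response transcripts. Without those 3 libraries the log2 differences were 1.11 for B2m, 1.76 for H2-K1 and 1.51 for H2-D1, and all stayed called. Class I heavy chains are near-identical copies and the reads were aligned to a non-NOD reference, so the split of reads between them is uncertain, which does not touch B2m.

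All 9 tested genes of peptide loading were called higher against controls (median log2 0.39), and 5 of the 9 against the knockout-labelled group. Nlrc5, the transactivator of class I genes, held 8.54, 13.7 and 44.0 CPM in controls (lowest, median, highest) and 95.3, 92.1, 143, 90.5 and 138 CPM in transgenic replicates 1 to 5. That is a rise of 2.62 (SE 0.34, adjusted p = 0.0001326 by edgeR), and 3.06 (SE 0.37, adjusted p = 0.0008523) against the knockout-labelled group. Tap1, a subunit of the peptide transporter, rose by 0.74 (SE 0.11, adjusted p = 0.0001438), and Erap1, which trims peptides in the endoplasmic reticulum, by 0.50 (SE 0.05, adjusted p = 1.011e-05). Both were also called against the knockout-labelled group, at 0.79 and 0.31. Calr, the chaperone calreticulin, was higher than in controls by 0.39 (SE 0.07, adjusted p = 0.0003349) and differed by 0.03 (SE 0.07, adjusted p = 0.9682) from the knockout-labelled group. Without the 3 libraries with high interferon-response transcripts 5 of the 9 loading genes were called against controls and 3 against the knockout-labelled group.

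Of 16 nonclassical class I genes, 9 were called higher and 1, Mr1, lower against controls, and 5 were called higher against the knockout-labelled group. H2-Q7, a Qa-2 gene of haematopoietic cells, held 4.69, 5.65 and 8.4 CPM in controls (lowest, median, highest) and 28.2, 24.7, 48.9, 26.9 and 41.8 CPM in transgenic replicates 1 to 5 (log2 2.41, SE 0.19, adjusted p = 1.897e-06 by edgeR). Its difference from the knockout-labelled group was nearly the same, 2.35 (SE 0.20, adjusted p = 1.138e-05). H2-T3, which encodes the thymus leukaemia antigen, and H2-T10 went another way. H2-T3 was higher than in controls by 0.97 (SE 0.11, adjusted p = 1.812e-05) but differed by -0.01 (SE 0.11, adjusted p = 0.9932) from the knockout-labelled libraries. H2-T10 was higher by 0.98 (SE 0.12, adjusted p = 5.363e-05) and by 0.34 (SE 0.13, adjusted p = 0.3264).

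The immunoproteasome, a proteasome form whose inducible subunits favour class I peptides, was called higher in full: 5 of 5 genes against controls (median log2 0.81) and 5 of 5 against the knockout-labelled group (median 0.53). Psmb9 held 25.5, 28.1 and 33.5 CPM in controls (lowest, median, highest) and 67.1, 55.9, 65.1, 61.6 and 66.3 CPM in transgenic replicates 1 to 5. Psmb10 rose by 0.81 (SE 0.08, adjusted p = 8.383e-06 by edgeR) and Psmb8 by 0.53 (SE 0.05, adjusted p = 8.383e-06). The activator subunits Psme1 and Psme2 rose by 0.66 (SE 0.08) and 0.84 (SE 0.10). Without the libraries with high interferon-response transcripts 5 of 5 were still called against controls, and 2 of 5 against the knockout-labelled group. The constitutive proteasome differed in its second comparison: 26 of 32 subunits were called higher against controls (median log2 0.26), 16 in either sex alone, and 0 of 32 against the knockout-labelled group by edgeR.

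**Figure D2:**
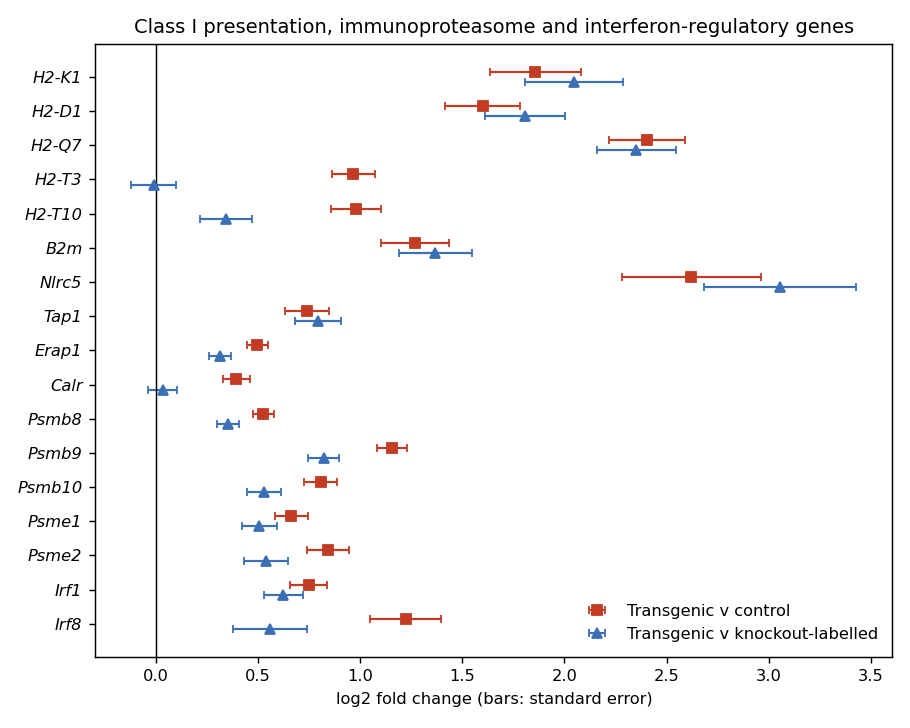
Log2 differences with SEs for 17 genes of class I presentation, the immunoproteasome and their regulators, transgenic minus control and transgenic minus knockout-labelled libraries, from the same fit. Nlrc5 and H2-Q7 are far right in both comparisons, whereas H2-T3 and Calr are higher than in controls and near 0 against the knockout-labelled group.

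Of 9 tested interferon regulatory factor genes, 5 were called higher and 1, Irf3, lower against controls, beside 23% and 15.6% over all genes. Against the knockout-labelled group 2 were called higher. Against controls 3 were higher without transgenic replicate 1 or 5 and in males alone, and against the knockout-labelled group 4 without transgenic replicate 4. Irf1, which drives class I and immunoproteasome genes, held 64.1, 72.9 and 102 CPM in controls (lowest, median, highest) and 138, 124, 126, 121 and 134 CPM in transgenic replicates 1 to 5. It rose by 0.75 (SE 0.09, adjusted p = 3.104e-05 by edgeR) and, against the knockout-labelled group, by 0.62 (SE 0.10, adjusted p = 0.001872). Irf8, a factor of B cells and dendritic cells, was higher by 1.22 (SE 0.17, adjusted p = 0.0001129) and was not called against the knockout-labelled group (0.56, SE 0.18, adjusted p = 0.2078).

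Of 18 tested interferon-inducible GTPases, which guard cells against intracellular pathogens, 16 were called higher and 1, Gbp8, lower against controls (median log2 1.45), and 14 were called higher against the knockout-labelled group. Gbp2 held 26.2, 27.7 and 51.7 CPM in controls (lowest, median, highest) and 76.6, 75.2, 93.2, 57.4 and 83.9 CPM in transgenic replicates 1 to 5, without overlap. Gbp3 and Gbp5 rose by 1.73 (SE 0.20, adjusted p = 2.565e-05 by edgeR) and 1.53 (SE 0.19, adjusted p = 3.104e-05). Iigp1 gave the largest rise of the list, 3.72 (SE 0.74, adjusted p = 0.001794), which became 5.63 without control replicate 2. That control held 13.1 CPM of Iigp1, against 0.11 to 0.801 CPM in the other 5. In males alone 3 of the GTPases were called, in females alone 15, and 16 once the 3 libraries with high interferon-response transcripts were removed. Against the knockout-labelled group the count went from 8 without transgenic replicate 3 to 17 without transgenic replicate 4, and was 9 without knockout-labelled replicate 2, 3 or 4.

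The wider list of type I interferon response genes was less stable. Of 38 tested, 17 were called higher against controls and 7 against the knockout-labelled group, and none was called lower. The count against controls was 7 without control replicate 1 or transgenic replicate 3 and 34 without control replicate 2. It was 8 to 10 without control replicate 3, 4, 5 or 6 or transgenic replicate 1 or 5, and 28 without transgenic replicate 4. It was 0 in males alone, 29 in females alone and 30 with the removal of all 3 libraries with high interferon-response transcripts. Against the knockout-labelled group it ran from 2 without transgenic replicate 3 or any of knockout-labelled replicates 2 to 5 to 23 without transgenic replicate 4, with 3 without transgenic replicate 5. The summed level of the list was 2573 CPM in control replicate 2 and 959 to 1071 CPM in the other controls. It was 1678, 1509, 4480, 1410 and 2954 CPM in transgenic replicates 1 to 5 and 898 to 1158 CPM in the knockout-labelled libraries. So every transgenic library lay above 5 of the 6 controls and above all knockout-labelled libraries. Ifit1, a classical marker of type I interferon, held 1.82, 3.99 and 67.1 CPM in controls (lowest, median, highest) and 17.9, 9.76, 145, 9.2 and 66.2 CPM in transgenic replicates 1 to 5. It was not called (log2 1.78, SE 0.80, adjusted p = 0.09511), nor was Isg15 (1.35, SE 0.60, adjusted p = 0.09363). Ly6a, the surface antigen Sca-1, was called higher by 3.44 (SE 0.72, adjusted p = 0.002579), or 4.77 without control replicate 2. Zbp1, a nucleic acid sensor, and Phf11d, a nuclear protein gene, were called higher by 0.99 (SE 0.26) and 1.39 (SE 0.32).

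**Figure D3:**
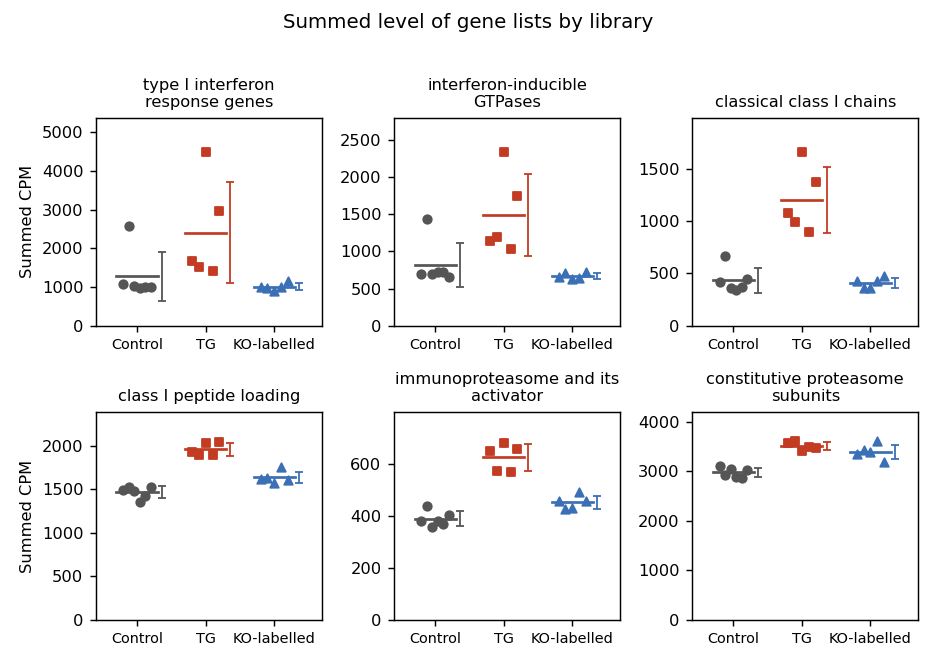
Summed level in CPM of 6 gene lists of class I presentation and interferon response in each library, by group; points are libraries, lines are means and bars are SDs, on linear axes from 0. Control replicate 2 and transgenic replicates 3 and 5 are the high points of the interferon lists, and the immunoproteasome sums, 570 to 679 CPM in transgenic libraries and 357 to 438 CPM in controls, do not overlap.

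Immunoglobulin transcripts were among the largest rises of the comparison. In bulk RNA more cells of a type and more RNA per cell cannot be told apart. Of 13 listed immunoglobulin genes (constant genes and J chain), 8 were tested. All 8 were called higher against controls (median log2 4.89), and 6 of the 8 against the knockout-labelled group. Members near 0 in both other groups, such as Ighg2c, passed the filter on low counts only through the transgenic libraries. Such members could hardly be called anything but higher, so this count and median are not independent support. The same holds below for Mzb1, Adamdec1, Adgre1, Pax5 and Bcl11a. Igha, Spib, Itgax, Cybb and Ctsh, higher in some other libraries, also passed that filter only with the transgenic libraries. Other low-level markers of B cells, dendritic cells and macrophages may have done so too. The counts of called members in the lists that hold these genes are therefore not independent support either. Igkc, the kappa light chain constant gene, held 0.107, 0.34 and 2.64 CPM in controls (lowest, median, highest) and 27.6, 39.95, 74.7, 69.3 and 88.0 CPM in transgenic replicates 1 to 5. Its rise was 6.21 (SE 0.54, adjusted p = 1.233e-05 by edgeR), or 7.27 without control replicate 1, the highest control. Jchain, which joins antibody polymers and is a gene of antibody-secreting cells, held 0.274 to 0.919 CPM in controls and 3.71, 7.62, 14.5, 12.9 and 17.6 CPM in transgenic replicates 1 to 5. It rose by 4.23 (SE 0.33, adjusted p = 1.675e-06) and by 5.01 (SE 0.36, adjusted p = 2.341e-06) against the knockout-labelled group. Replicate 1 was the lowest transgenic library for both genes and replicate 5 the highest, unlike the order of Nfkbid.

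Class-switched heavy chains were present as well. Ighg2c, an IgG constant gene, was 0 in 4 of the 6 controls, 0.438 and 0.386 CPM in control replicates 4 and 6, and 1.17, 4.22, 9.08, 13.9 and 4.29 CPM in transgenic replicates 1 to 5. The fitted log2 difference was 5.56 (SE 0.97, adjusted p = 0.001728 by edgeR), and 6.53 or 6.31 without control replicate 4 or 6. All 5 knockout-labelled libraries held 0. Igha, the IgA constant gene, was higher by 3.50 (SE 0.83, adjusted p = 0.004896), or 4.42 without control replicate 1, and was not called against the knockout-labelled group (2.71, adjusted p = 0.1576). Ighm, the IgM constant gene, already stood at 383, 394 and 447 CPM in controls (lowest, median, highest) and at 562, 567, 580.2, 614 and 675 CPM in transgenic replicates 1 to 5. That rise of 0.58 (SE 0.06, adjusted p = 1.056e-05) left the groups without overlap. Only 4 of 160 kappa and 2 of 185 heavy chain variable segments passed the filter on low counts, and they passed through the group where they were high. Over all listed segments, the summed kappa variable level was 0.0534 to 2.1 CPM in controls, 0.17 to 0.809 CPM in knockout-labelled libraries, and 19.5, 31.2, 61.2, 51.4 and 65.6 CPM in transgenic replicates 1 to 5. The summed heavy chain variable level was 0.121 to 1.61 CPM in controls and 14.4, 22.03, 45.9, 40.1 and 46.8 CPM in transgenic libraries.

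B cell identity genes were higher at low levels. Of 13 tested of 18 listed, 10 were called higher against controls (median log2 1.99) and 6 against the knockout-labelled group. The list summed to 9.47 to 18.6 CPM in controls, 11.3 to 21.2 CPM in knockout-labelled libraries and 59.5, 28.3, 25.9, 26.9 and 21.1 CPM in transgenic replicates 1 to 5. Pax5, the factor that commits cells to the B lineage, was 0 in control replicates 3, 4 and 5. Its difference was 3.21 (SE 0.89, adjusted p = 0.01082 by edgeR), 5.19 without control replicate 1 and 2.33 without transgenic replicate 1. Spib, a factor of B cells and plasmacytoid dendritic cells, was higher by 2.73 (SE 0.41, adjusted p = 0.0001274). Ms4a1, which encodes CD20, was not called against controls (0.41, SE 0.22, adjusted p = 0.151) but was against the knockout-labelled group (1.12, SE 0.25, adjusted p = 0.0292).

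Of 11 tested antibody-secretion genes 6 were called higher and 1, Edem1, lower. The list summed to 1469 to 1993 CPM in controls and 1465 to 1575 CPM in transgenic libraries, and most of that sum was Edem1, at 1710 CPM on average in controls and 1353 CPM in transgenic libraries. Edem1 acts in the disposal of misfolded glycoproteins and is not particular to antibody-secreting cells. In males alone, and likewise in females alone, 2 were called higher. Mzb1, a chaperone of antibody assembly, held 0 to 0.121 CPM in controls and 1.76, 0.976, 1.26, 1.81 and 2.05 CPM in transgenic replicates 1 to 5 (log2 4.31, SE 0.46, adjusted p = 1.233e-05 by edgeR), and it was the one of the list called against the knockout-labelled group (3.61, SE 0.44, adjusted p = 0.0002019). Sdc1, the plasma cell surface marker CD138, was at 4.19 to 7.96 CPM in controls and 4.73 to 6.71 CPM in transgenic libraries and was not called (log2 -0.22, SE 0.38, adjusted p = 0.6773). So within this list the immunoglobulin chaperone passed the test and the surface marker did not.

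Markers of antigen-presenting cells were higher too, and here the knockout-labelled libraries shared part of the rise. Of 10 class II presentation genes, 9 were called higher against controls (median log2 1.7) and 1, H2-DMa, against the knockout-labelled group. Summed over the list, controls held 31.6 to 53.7 CPM, transgenic replicates 1 to 5 held 139.9, 93.1, 103, 88.2 and 121 CPM, and knockout-labelled replicates 1 to 5 held 116, 108, 121, 30.0 and 46.4 CPM. Cd74, the invariant chain, was higher by 2.99 (SE 0.73, adjusted p = 0.006575 by edgeR), or 3.65 without control replicate 1. H2-Ab1, a class II beta chain, was higher by 3.20 (SE 0.81, adjusted p = 0.007964), or 4.14 without that control. H2-DMa, which loads class II peptides, rose by 0.81 (SE 0.08, adjusted p = 1.056e-05). In males alone 3 class II genes were called, and leaving out the 3 libraries with high interferon-response transcripts left 4. There Cd74 and H2-Ab1 lost their calls at log2 differences of 2.88 (adjusted p = 0.0537) and 2.82 (adjusted p = 0.0738), and the median of the list was 1.55.

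Dendritic cell markers were called higher in 8 of 11 tested of 14 listed against controls and in 1, Ly75, against the knockout-labelled group. Their summed level was not higher, at 1913 to 2125 CPM in controls and 1725 to 2087 CPM in transgenic libraries, and most of it was Ccr9, a chemokine receptor that double-positive thymocytes also express, which was not called. Itgax, which encodes CD11c, was at 0.0534 to 0.689 CPM in controls and 2.68, 2.62, 1.69, 2.39 and 2.52 CPM in transgenic replicates 1 to 5 (log2 3.36, SE 0.61, adjusted p = 0.0007122 by edgeR). Without control replicate 1 the differences were 4.23 for Itgax and 4.13 for Sirpa, a signal-regulatory receptor of myeloid cells, in place of 3.29. Ly75, the endocytic receptor DEC-205, was far more abundant than these. It held 21.5, 23.9 and 29.9 CPM in controls (lowest, median, highest) and 64.4, 56.5, 57.6, 57.9 and 54.3 CPM in transgenic replicates 1 to 5, and rose by 1.26 (SE 0.08, adjusted p = 9.794e-08) and by 0.80 (SE 0.09, adjusted p = 5.447e-05) against the knockout-labelled group.

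Macrophage and monocyte markers were called higher in 8 of 11 tested of 15 listed (median log2 1.63), and 1, Ctss, was called against the knockout-labelled group. The list summed to 17.8 to 25.2 CPM in controls, 16.6 to 26.2 CPM in knockout-labelled libraries and 44.3, 45.9, 45.6, 47.1 and 45.9 CPM in transgenic replicates 1 to 5, a narrow range clear of both other groups. Ctss, the lysosomal protease cathepsin S of antigen-presenting cells, held 1.38 to 4.26 CPM in controls and 14.5, 15.1, 21.0, 14.5 and 14.9 CPM in transgenic replicates 1 to 5. It rose by 2.47 (SE 0.29, adjusted p = 3.411e-05 by edgeR) and by 1.95 (SE 0.30, adjusted p = 0.002461). Csf1r, the receptor that macrophages need to survive, was higher by 2.60 (SE 0.65, adjusted p = 0.005755), or 3.39 without control replicate 1. Adgre1, which encodes F4/80, was 0 in control replicate 4 and higher in transgenic libraries by 2.41 (SE 0.51, adjusted p = 0.001634).

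Among the 10 largest rises were further genes of myeloid and dendritic cells. Adamdec1, a protease gene of macrophages and dendritic cells, was 0 in 4 controls and at 3.71, 4.06, 1.04, 2.07 and 2.95 CPM in transgenic replicates 1 to 5 (log2 5.09, SE 0.65, adjusted p = 5.318e-05 by edgeR). Without control replicate 1 that value was 7.59. Cybb, a subunit of the phagocyte oxidase, rose by 3.48 (SE 0.54, adjusted p = 0.0002105), and Ctsh, the lysosomal protease cathepsin H, by 3.39 (SE 0.56, adjusted p = 0.0003326). Against the knockout-labelled group Adamdec1 and Cybb were called (5.23 and 2.71), and Ctsh was not (1.65, adjusted p = 0.1933).

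Of 10 tested cytotoxic and innate-like lymphocyte genes, 6 were called higher, among them Gzma, the protease granzyme A, by 1.14 (SE 0.23, adjusted p = 0.001826 by edgeR) and Ccl5, a chemokine of effector lymphocytes, by 2.50 (SE 0.44, adjusted p = 0.0003887). Ccl5 was the one called against the knockout-labelled group, at 2.53 (SE 0.48, adjusted p = 0.009876). Of 6 tested genes of thymic epithelium, stroma and endothelium, none was called higher, and Col1a2, a collagen chain, fell by 0.98 (log2 -0.98, SE 0.18, adjusted p = 0.0008143). Col1a2 held 17.9, 19.6 and 24.5 CPM in controls (lowest, median, highest) and 9.22, 11.01, 12.5, 10.4 and 9.24 CPM in transgenic replicates 1 to 5. It was also called lower against the knockout-labelled group (log2 -1.29, SE 0.19, adjusted p = 0.001805). Epcam, the epithelial adhesion molecule, was at most 0.857 CPM in these 11 libraries and was not called. Of 4 tested erythroid, platelet and granulocyte markers none was called, and their sum was highest in control replicate 1, at 97.6 CPM. In males alone the calls against controls came to 6 B cell, 3 dendritic, 2 macrophage and 3 cytotoxic genes. The part of these cell types in the class II, interferon and class I results was not tested.

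**Figure D4:**
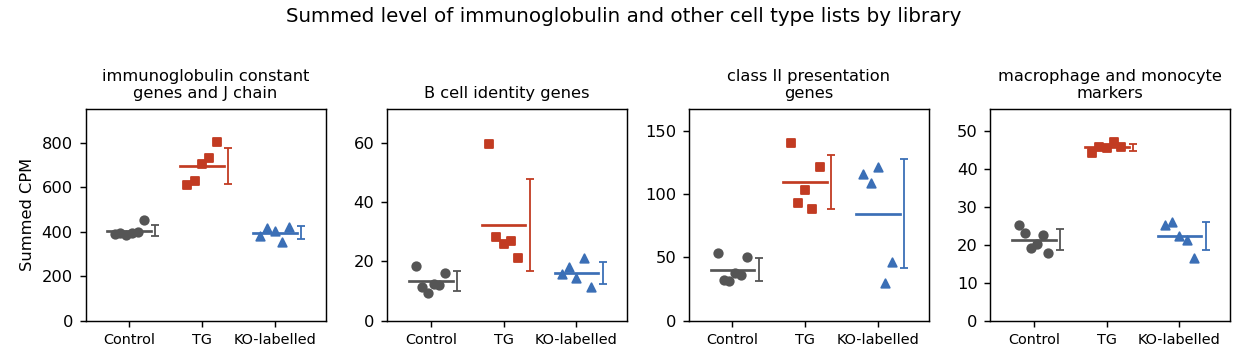
Summed level in CPM of immunoglobulin, B cell, class II and macrophage lists in each library, by group; points are libraries, lines are means and bars are SDs, on linear axes from 0. The macrophage sums of the 5 transgenic libraries, 44.3 to 47.1 CPM, sit clear of both other groups, while 3 of the 5 knockout-labelled libraries reach the transgenic range for class II genes.

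The defining genes of double-positive thymocytes were abundant in every library. Of 22 tested genes of that stage, 9 were called lower in transgenic libraries than in controls, beside 15.6% of all genes. Cd8a held 1598, 2202 and 2342 CPM in controls (lowest, median, highest) and 1698, 1755, 1837, 1677 and 1957 CPM in transgenic replicates 1 to 5 (log2 -0.25, SE 0.08, adjusted p = 0.01666 by edgeR). Cd4 fell by 0.45 (log2 -0.45, SE 0.09, adjusted p = 0.0008354). Both genes overlapped between the groups through control replicate 6, the lowest control. Of the 22 genes 1, Ptcra, was called higher and 12 were not called (median log2 -0.13), and none was called against the knockout-labelled group by edgeR, where the median was -0.12. Rag1, the recombinase of TCR rearrangement, was lower by 0.96 (log2 -0.96, SE 0.22, adjusted p = 0.003883), with control replicate 6, at 492 CPM, inside the transgenic range of 441 to 565 CPM. Plxnd1, a guidance receptor of the double-positive stage, was lower by 0.55 (log2 -0.55, SE 0.10). In females alone 1 of the 22 was called lower, and Cd4, Cd8a and Rag1 lost their calls at log2 differences of -0.452, -0.261 and -0.898 (adjusted p = 0.149, 0.296 and 0.221). The Ptcra call was lost on leaving out any 1 library other than control replicate 6.

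Of 24 tested CD3 and proximal TCR signalling genes 7 were called lower and none higher, beside 15.6% and 23% over all genes, among them Ptprc, the phosphatase CD45 (log2 -0.30, SE 0.06, adjusted p = 0.0007318 by edgeR), and Themis, a protein needed for positive selection (log2 -0.29, SE 0.06, adjusted p = 0.001275). None was called against the knockout-labelled group, where these 2 differed by -0.02 and -0.07. Ptprc held 2218 to 2405 CPM in controls and 1736 to 2070 CPM in transgenic libraries, which did not overlap. The list had 11 genes lower after the GC and length correction and 1 in females alone, where Ptprc and Themis differed by -0.298 (adjusted p = 0.0945) and -0.183 (adjusted p = 0.275).

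Genes of maturation and exit from the thymus were higher. Of 27 tested, 17 were called higher and none lower against controls (median log2 0.78), and 7 against the knockout-labelled group (median 0.52). The list includes class I and interferon-inducible genes that mark maturation, and 3 of those 7 were H2-K1, H2-Q7 and Ly6a. Ccr7, the receptor that guides cells to the medulla, held 13.6, 15.8 and 26.0 CPM in controls (lowest, median, highest) and 40.3, 29.3, 36.1, 32.6 and 27.9 CPM in transgenic replicates 1 to 5 (log2 0.90, SE 0.21, adjusted p = 0.004216 by edgeR). Plac8, a lymphoid and myeloid gene, was higher by 2.34 (SE 0.43, adjusted p = 0.001134). S1pr1, the exit receptor, and Klf2, the factor that induces it, were higher by 1.38 (SE 0.39, adjusted p = 0.01412) and 0.89 (SE 0.22, adjusted p = 0.005315). Control replicate 6 lay within the transgenic range for both, at 30.0 and 48.5 CPM. None of these 4 was called against the knockout-labelled group, and S1pr1 and Klf2 lost their call against controls without the libraries with high interferon-response transcripts, which left 11 of the list called higher. In females alone 9 of 27 were called higher. There Ccr7, Plac8, S1pr1 and Klf2 all lost their calls at log2 differences of 0.942, 2.1, 1.14 and 0.477 (adjusted p = 0.115, 0.199, 0.438 and 0.568 by edgeR). Nod1, a cytoplasmic sensor of bacterial cell wall that signals to NF-kB, was called in both comparisons, at 0.73 (SE 0.10, adjusted p = 8.162e-05) and 1.02 (SE 0.11, adjusted p = 5.447e-05).

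Of 14 tested genes of the double-negative stage and the Notch pathway, 7 were called higher against controls, beside 23% over all genes. None was called against the knockout-labelled group by edgeR. Bcl11a and Lyl1, factors of early progenitors, were higher by 2.63 (SE 0.51, adjusted p = 0.0008495) and 1.09 (SE 0.25, adjusted p = 0.002612), and Bcl11a by 3.44 without control replicate 1. The count was 4 without control replicate 2 or transgenic replicate 1 or 5 and 2 without the libraries with high interferon-response transcripts. Bcl11a passed the filter on low counts only through the transgenic libraries. Bcl11a is also a B cell and dendritic cell gene, and most tested markers of those cells were called higher against controls as well. The part of those cells in its rise was not tested.

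Among cytokine receptor and JAK-STAT genes, 10 of 32 were called higher and 4 lower against controls, beside 23% and 15.6% over all genes. In females alone 4 were higher and none lower, and in males alone 2 were lower. Against the knockout-labelled group 2 were called higher, and by edgeR none without transgenic replicate 3 or 5 or knockout-labelled replicate 1 and 1 on leaving out any other library but transgenic replicate 2. Il15ra, which presents the survival cytokine IL-15, held 0.85 to 1.66 CPM in controls and 3.37, 3.01, 3.17, 2.92 and 3.19 CPM in transgenic replicates 1 to 5, and was called in both comparisons (1.25, SE 0.20, adjusted p = 0.0002264, and 0.98, SE 0.21, adjusted p = 0.0255 by edgeR). Tnfrsf8, which encodes CD30, a TNF receptor of activated lymphocytes, was likewise called in both, at 1.16 (SE 0.13, adjusted p = 1.929e-05) and 0.90 (SE 0.14, adjusted p = 0.002244). It held 6.62, 8.59 and 9.75 CPM in controls and 22.7, 20.7, 14.7, 17.1 and 19.2 CPM in transgenic replicates 1 to 5.

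Genes of growth and division were higher than in controls and gave no call within the identifier series. All 30 mitosis genes (median log2 0.65) and 33 of 35 DNA replication genes (median 0.63) were called higher against controls, and 0 of the 30 and 0 of the 35 against the knockout-labelled group by edgeR. Ccnb1, the mitotic cyclin B1, held 60.5, 75.9 and 87.9 CPM in controls (lowest, median, highest) and 143, 169, 124, 165 and 159 CPM in transgenic replicates 1 to 5, but 97.4 to 164 CPM in knockout-labelled libraries. Its log2 difference was 1.01 (SE 0.14, adjusted p = 0.0001042) against controls and 0.11 (SE 0.14, adjusted p = 0.9231) against the knockout-labelled group. Plk1, a mitotic kinase, Ccne1, the cyclin of S phase entry, and Fen1, a nuclease of lagging-strand synthesis, were higher than in controls by 0.88 (SE 0.11), 0.76 (SE 0.09) and 0.67 (SE 0.09). In males alone 13 mitosis and 11 DNA replication genes were called, and in females alone 27 and 32.

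The machinery of protein synthesis and energy followed the same pattern. Of 76 cytosolic ribosomal protein genes, 66 were called higher against controls (median log2 0.36), of 75 nuclear oxidative phosphorylation genes 71 (median 0.32), of 35 ribosome biogenesis genes 26 with 1 lower (median 0.32), and of 19 tested glycolytic enzymes 15 (median 0.37). Against the knockout-labelled group none of these 4 lists gave a call by edgeR, with medians from -0.03 to 0.10. Rps6, a protein of the small ribosomal subunit, held 487, 497 and 553 CPM in controls and 751, 715, 689, 653 and 658 CPM in transgenic replicates 1 to 5, and Rrp12, a ribosome assembly factor, was higher by 0.96 (SE 0.13). Gapdh, Pgk1 and Hk2, enzymes of glycolysis, were higher by 0.50 (SE 0.06), 0.56 (SE 0.06) and 1.17 (SE 0.23), and Cox8a, a subunit of cytochrome oxidase, by 0.57 (SE 0.06). After the GC and length correction 9 glycolytic, 17 ribosome biogenesis and 49 oxidative phosphorylation genes were called higher, and in males alone 4, 5 and 37, with 39 ribosomal protein genes. None of the 13 mitochondrially encoded genes was called.

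Sterol and fatty acid synthesis gave 25 of 28 genes higher against controls (median log2 0.47), 16 in females alone, and 0 against the knockout-labelled group by edgeR. Cyp51 and Fdps, enzymes of sterol synthesis, were higher by 1.2 (SE 0.13) and 0.77 (SE 0.08). In the serine synthesis and ATF4 list 8 of 19 tested genes were called higher and 2 lower, beside 23% and 15.6% over all genes. Phgdh, the entry enzyme of serine synthesis, was higher by 0.85 (SE 0.11) and Mthfd1, a folate cycle enzyme, by 1.00 (SE 0.16).

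**Figure D5:**
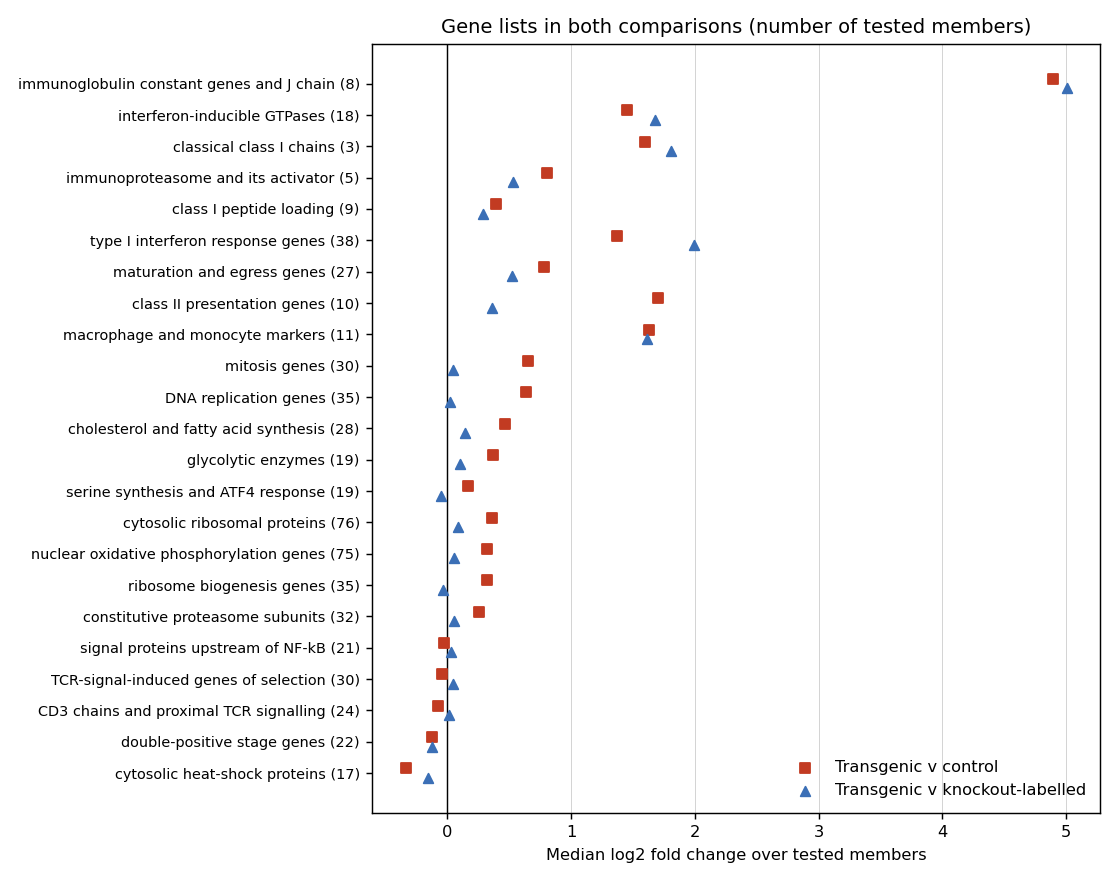
Median log2 difference of the tested members of 23 gene lists, transgenic minus control and transgenic minus knockout-labelled libraries. The immunoglobulin list, 4.89 and 5.01, and the interferon-inducible GTPases, 1.45 and 1.68, are high in both comparisons, while the mitosis, 0.65 and 0.04, and DNA replication lists, 0.63 and 0.02, are high in the first alone.

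The 10 largest falls among genes of at least 1 CPM were mainly of immediate-early and heat-shock genes, which cells induce quickly after a signal or stress. Fos held 47.3, 85.3 and 116 CPM in controls (lowest, median, highest) and 7.46, 5.43, 4.47, 6.7 and 6.86 CPM in transgenic replicates 1 to 5, and knockout-labelled libraries held 4.09 to 28.3 CPM. The fall was 3.75 (log2 -3.75, SE 0.50, adjusted p = 0.0001494 by edgeR) against controls, and -0.54 (SE 0.53, adjusted p = 0.8938) was measured against the knockout-labelled group. Jun, Fosb and Junb, further AP-1 subunit genes, fell by log2 -3.25 (SE 0.52), -3.22 (SE 0.36) and -1.44 (SE 0.22). Of 10 tested AP-1 genes 4 were called lower and 1, Batf, higher, beside 15.6% and 23% over all genes. None was called against the knockout-labelled group, where 1.17% of all genes were.

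Of 17 tested heat-shock genes 10 were called lower against controls, beside 15.6% over all genes, and 6 without the libraries with high interferon-response transcripts. None was called against the knockout-labelled group by edgeR, where 1.17% of all genes were. Hspa1b, an inducible HSP70 gene, ranged from 0.717 to 119 CPM in controls and from 0.347 to 2.81 CPM in transgenic libraries, with overlap. Its fall of 5.08 (log2 -5.08, SE 1.26, adjusted p = 0.007072) became -6.94 without transgenic replicate 2. For its near-identical neighbour Hspa1a, between which reads may be shared, the fall was 4.86 (log2 -4.86, SE 1.17), or -5.87 without transgenic replicate 2. The 3 male controls held 67.5 to 119 CPM of Hspa1b and the 3 female controls 0.717 to 13.1 CPM, and both genes lost their call in females alone and without the libraries with high interferon-response transcripts. Among mRNA-decay, stress and feedback genes, 8 of 22 were called lower and 4 higher, beside 15.6% and 23% over all genes. Ppp1r15a, which ends the stress block of translation, fell by 2.21 (log2 -2.21, SE 0.22, adjusted p = 1.962e-05). Klf4, Dusp1 and Gadd45g, early-response genes, fell by log2 -1.83 (SE 0.41), -1.29 (SE 0.21) and -1.26 (SE 0.18). Rgs2, a brake on G protein signalling, held 35.6, 39.0 and 40.8 CPM in controls and 19.6, 17.7, 17.4, 18.5 and 17.4 CPM in transgenic replicates 1 to 5 (log2 -1.09, SE 0.06, adjusted p = 3.144e-08), and missed the threshold against the knockout-labelled group at -0.27 (SE 0.06, adjusted p = 0.05103).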

How the data were processed

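The sorted cells were lysed in TRIzol and their RNA, of a RIN above 9, went into KAPA stranded libraries, per the labels' protocols. The authors deposited, per the file headers, expected counts and TPM values per gene, 1 file for each library and without pooling. The submitters' processing notes name Bowtie 1.0.0, SAMtools 0.1.18, edgeR 3.24.3 and the builds GRCm38 and mm10; the sources used here do not name the counting program. Of the deposited expected counts above 0, 58.7% were whole to within 1e-06, and all were rounded. The deposited TPM values were used only for levels in the tables. Gene IDs were matched to symbols in 46005 of 46517 cases, and IDs without a symbol held 0.171% of counts and were kept in the fits.

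One fit with edgeR 4.0.16 (R 4.3.3; TMM scaling, filterByExpr by group, robust quasi-likelihood F test, sex as a covariate, all 16 libraries in 3 groups) gave every comparison, with 12 residual degrees of freedom and a common biological coefficient of variation of 0.128. The script was tested on simulated data. Alternatives used DESeq2 1.42.0, limma 3.58.1, other scalings and filters, single sexes, a replicate block, a test against a 1.2-fold change and omitted libraries. The correction for GC content and length was added after the data were seen. Replicates of a group differed by more than counting noise.

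Named genes are Nfkbid, Hcst, the 10 largest rises and falls among called genes of at least 1 CPM, and at most 3 called members a list with the smallest p. Any other named gene was chosen after its values were seen. The members and lists were chosen with earlier results of these data known. Some genes are not reported here.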

Additional observations from a re-analysis of the deposited data

Results flagged for a closer look

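In groups of 5 or 6 libraries, a library was singled out where its gap to the nearest other library exceeded 0.71 (5 libraries) or 0.625 (6 libraries) of the group's range. Of 244 gene and group combinations checked, 36 met this. Chance alone singles out about 1 group in 20, and genes of a list move together, so the 36 are not independent.

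Control replicate 2 was the high library for 13 genes, all of class I presentation or interferon response. It held 212 CPM of H2-D1, 44.0 of Nlrc5, 135 of Tap1, 112 of Psme1, 51.7 of Gbp2, 7.96 of Gbp3 and 7.62 of Gbp5. It also held 13.1 CPM of Iigp1, 8.99 of Ly6a, 119 of Zbp1, 4.33 of Phf11d, 67.1 of Ifit1 and 47.1 of Isg15.

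Control replicate 6 stood apart for 9 genes. It was high for Nfkb1 (209 CPM), Bak1 (81.7 CPM), Ighm (447 CPM), Klf2 (48.5 CPM), Junb (191 CPM), Ppp1r15a (105 CPM) and Dusp1 (73.2 CPM), and low for Bcl2l11 (157 CPM) and Bcl2l1 (69.6 CPM). Control replicate 1 was the high control for 6 genes of B cells and antigen-presenting cells: Igkc at 2.64 CPM, Pax5 at 0.613, Itgax at 0.689, Cd74 at 9.3, H2-Ab1 at 3.94 and Adamdec1 at 0.344.

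Transgenic replicate 1 was high for Spib (3.32 CPM), Pax5 (5.03 CPM), Ms4a1 (3.9 CPM) and Nod1 (19.4 CPM) and low for Chuk (68.2 CPM). It was also the library with the most Nfkbid. Transgenic replicate 3 was low for Calr (353 CPM) and high for Ctss (21.0 CPM), and transgenic replicate 2 was high for Hspa1b (2.81 CPM).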

How the results depend on the processing

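Of 122 named genes, 111 were called against controls, and over 25 alternatives none of these reversed in 2758 recomputed values, while 103 values lost the call. Most losses fell in females alone, in males alone and in the test against a 1.2-fold change. Among the genes still tested, DESeq2, RLE size factors, library totals, limma-voom, either filter and the fit without sex each cost at most 2 named genes their call, always Bax or Bcl2l1. The stricter filter, 1 CPM in at least 5 libraries, tested only 104 of the 111, and the genes it dropped are not counted as losses. Against controls, males alone gave 1480 genes higher, females alone 1414 higher and 859 lower, the test against a 1.2-fold change 987 higher and 441 lower, and the fit without the 3 libraries with high interferon-response transcripts 2276 higher. Leaving out 1 library at a time gave 2533 to 3271 higher and 1855 to 2812 lower. Against the knockout-labelled libraries DESeq2 gave 277 higher and 65 lower, the fit without a filter 249 and 29, males alone 94 higher, the 1.2-fold test 97 and 2, and the GC and length correction 37 lower. Leaving out 1 library there gave 112 to 202 higher and 9 to 24 lower, the extremes of the latter without transgenic replicate 4 and without knockout-labelled replicate 2. Among the uncalled genes the sign of small differences turned. Nfkb1 was at log2 -0.0237 under DESeq2 and with RLE size factors, -0.0168 with no filter, -0.0258 with the stricter filter, -0.0185 in the fit of 2 groups, -0.0861 in females alone, -0.0292 without the libraries with high interferon-response transcripts, -0.0409 with the GC and length correction, and from -0.0417 (without transgenic replicate 4) to 0.0479 (without control replicate 6). Rela was at -0.0639 with the GC and length correction. Egr2 and Cd69 were at 0.0955 and 0.0946 in females alone, and Cd69 ran from -0.0892 without transgenic replicate 2 to 0.0384 without transgenic replicate 4. The cause of these shifts was not tested; the single-sex and leave-out fits hold fewer samples.

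Replicate numbers are shared between groups but belong to different mice. Same-numbered transgenic and control libraries had correlated deviations of -0.0633, -0.0657, 0.0575, -0.00998 and 0.0417, and not every library matched its own number best. With a replicate block 3397 genes were higher and 2494 lower against controls, 139 higher and 27 lower against the knockout-labelled group, and 1 named gene, Zbp1, lost its call. The type I interferon list then had 3 of 38 genes higher in place of 17. Counts near 0, as for Casp1, Pax5 or Ighg2c, limit the precision of their fold changes.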

Other observations

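TCR alpha variable segments were mostly uncalled. Of 58 tested, 14 were called lower and none higher against controls (median log2 -0.41), beside 15.6% and 23% over all genes. Against the knockout-labelled group 1 was called higher. Their summed level over all listed segments was 416 to 589 CPM in controls and 483 to 567 CPM in transgenic libraries, so the sums overlapped, and without the 3 libraries with high interferon-response transcripts 6 were called lower. Of 19 tested TCR beta variable segments 1 was called lower.

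Replication-dependent histone transcripts, 20 of 53 tested called higher and none lower against controls, summed to 421 to 596 CPM in controls and 605 to 960 CPM in transgenic libraries. Their count was 10 without control replicate 2 or transgenic replicate 4, 13 without transgenic replicate 5 and 5 without the libraries with high interferon-response transcripts, and none was called against the knockout-labelled group by edgeR. Members of the p53 list were called lower in 6 of 18 and higher in 3, beside 15.6% and 23% over all genes, and the 3 became 1 without any 1 control or without transgenic replicate 1, 4 or 5 and 2 without transgenic replicate 2 or 3. Glucocorticoid receptor targets were called lower in 3 of 14 and higher in 2, near those shares over all genes. None of either list was called against the knockout-labelled group by edgeR.

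Calls against controls were spread over the genome, from 33.9% of tested genes on chromosome 18 to 44.4% on chromosome 19 among the autosomes, and 37.4% on chromosome 7, which carries Nfkbid.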
